A study of Arabidopsis thaliana with 47 samples.

Results

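The PLETHORA (PLT) and AINTEGUMENTA-like (AIL) genes of Arabidopsis thaliana were followed as 8 loci of the deposited count table, chosen by locus code out of 36823 loci: PLT1 (AT3G20840), PLT2 (AT1G51190), AIL6 (AT5G10510, also called PLT3), BBM (AT5G17430), AIL5 (AT5G57390), AIL7 (AT5G65510), AIL1 (AT1G72570) and ANT (AT4G37750). RNA was sequenced from the dissected meristematic zone of seedling roots in 47 libraries, each made from 50 root sections. Seedlings were 6 days old and were then treated for 24 h with mock, 0.3 nM RGF1 or 5 nM RGF1, a secreted peptide hormone of the root meristem. Every plant carried the plt2 mutation. The 3 genotypes were the plt2 mutant alone, plt2 with a genomic PLT2 transgene fused to the fluorescent protein GFP (gPLT2), and plt2 with the same fusion in which a cysteine of PLT2 is replaced by serine, C212S (gPLT2C212S). Each of the 9 groups had 5 libraries, except for 6 in both transgenic lines at 5 nM. No wild type without the plt2 mutation was among the groups. The labels name neither the plt2 allele nor the number of independent insertions behind each transgenic genotype, so an effect of the substitution and other differences between the lines cannot be told apart. The labels do not state that replicates came from separate plantings, and the p-values therefore measure the spread between these libraries.

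PLT and AIL proteins belong to the AP2 family of plant transcription factors and bind DNA through a pair of AP2 domains joined by a linker. In the root, PLT1, PLT2, PLT3 and BBM act redundantly to specify the stem cell niche, and the proteins form a gradient with its maximum at the tip, where high levels maintain stem cells and lower levels permit division and then differentiation. RGF peptides are sensed by receptor kinases of the root meristem and widen the PLT2 protein gradient. ANT is best known for its role in the growth of lateral organs of the shoot.

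The codon changed in gPLT2C212S lies in coding exon 3 of PLT2. That exon has 83 bases, and from each other gene the coding exon of the same length and reading phase was taken, so the shared length is no result. Where several qualified, the most identical was used. The codon at the same position in the exon, called the aligned place here, encodes cysteine in 7 of 8 genes, PLT2 included. The exons of the 5 genes with testable counts and of ANT, the exception, are shown because they place the substitution within the family. They are printed 5′ to 3′ in the direction of transcription from the RefSeq TAIR10.1 genome, with the codon aligned to the substituted codon of PLT2 in capitals.
PLT2: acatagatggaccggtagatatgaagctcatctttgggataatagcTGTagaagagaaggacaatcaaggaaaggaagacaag
PLT1: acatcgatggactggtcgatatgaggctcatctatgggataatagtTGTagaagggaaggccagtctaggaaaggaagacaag
AIL6: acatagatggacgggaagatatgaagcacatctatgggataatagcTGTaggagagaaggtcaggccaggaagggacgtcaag
BBM: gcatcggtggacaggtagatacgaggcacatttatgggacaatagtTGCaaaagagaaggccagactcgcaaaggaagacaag
AIL5: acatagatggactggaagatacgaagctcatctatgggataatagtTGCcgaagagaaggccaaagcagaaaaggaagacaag
ANT: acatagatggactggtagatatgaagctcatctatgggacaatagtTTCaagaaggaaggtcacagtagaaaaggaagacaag
The PLT2 exon is chr1:18978444-18978526 on the plus strand, and the PLT1 exon is chr3:7301490-7301572 on the plus strand. The AIL6 exon is chr5:3317439-3317521 on the plus strand, and the ANT exon is chr4:17740880-17740962 on the plus strand. The BBM exon is chr5:5744282-5744364 and the AIL5 exon is chr5:23255212-23255294, both on the minus strand. PLT1 was the closest to PLT2 over this exon, with 88.0% of bases identical, and BBM the least close, with 77.1%. ANT carried a phenylalanine codon at the aligned place.

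Total counts per library were 7739807 to 10332541. A pair of mitochondrial transcripts took 45.0% to 70.4% of them, and 2652354 to 5116600 counts remained per library once 14 ribosomal and organelle loci were set aside. Levels of a gene across groups are given as CPM, counts scaled to the size of that remainder with TMM factors. A floor of 3 counts corresponded to 0.585 to 1.13 CPM, which covers counting error only. In these bulk samples, fewer cells of a type and less RNA per cell cannot be told apart.

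AIL6 was the most abundant family member in most libraries, and the order of the others depended on genotype. Levels of different genes were compared per length, as the authors' deposited FPKM values. Averaged over the 47 libraries, FPKM was 33.6 for AIL6, 17.0 for PLT2, 8.0 for PLT1, 3.11 for BBM and 1.36 for AIL5. AIL6 had the highest FPKM of the family in 42 of 47 libraries, and PLT2 was above it in the other 5, all of them transgenic. BBM was above AIL5 in 45 of 47 libraries. PLT2 was above BBM in 5 of 15 plt2 libraries and in 32 of 32 transgenic libraries. PLT1 was above BBM in 15 of 15 plt2 libraries and in 25 of 32 transgenic libraries. AIL7 and ANT averaged 0.356 and 0.0885 FPKM, and AIL1 was not in the FPKM table.

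AIL7, AIL1 and ANT were too low for any comparison. AIL7 had 127 counts in total, spread over 38 libraries with at most 10 in a library, and its group means ranged from 0.350 CPM in plt2 under mock to 1.46 CPM in gPLT2 at 0.3 nM. ANT had 33 counts in 21 libraries, and AIL1 had 2 counts in 2 libraries. These group means were below or near the floor, so differences between groups in these 3 genes were not detectable at this depth. PLT1, PLT2, AIL6 and BBM were tested in all 24 comparisons. AIL5, at 3 to 26 counts per library, was tested in 20 of the 24, the exceptions being 0.3 nM against mock in gPLT2 and the genotype comparisons at 0.3 nM.

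PLT2 itself checked the labels. In plt2 roots under mock, PLT2 stood at 5.57, 3.48, 10.2, 5.60 and 8.94 CPM. Under mock the gPLT2 libraries held 37.6, 43.6, 36.6, 41.6 and 37.9 CPM and the gPLT2C212S libraries 55.3, 62.1, 77.7, 51.5 and 70.0 CPM. Every transgenic library was above every plt2 library, and every gPLT2C212S library was above every gPLT2 library. Under mock the log2 difference from plt2 was 2.57 in gPLT2 (SE 0.21, adjusted p = 4.12e-06, edgeR's quasi-likelihood test), and for gPLT2C212S it was 3.24 (SE 0.22, adjusted p = 1.27e-07). The counts do not separate transcripts of the transgene from those of the mutant locus. PLT2 in the mutant did not differ detectably between treatments, with log2 differences from mock of 0.11 at 0.3 nM (95% interval -0.55 to 0.78) and -0.21 at 5 nM (-0.80 to 0.38). The gene next to PLT2 on the chromosome, AT1G51200, begins 3662 bases beyond it and showed log2 differences from plt2 under mock of 0.05 in gPLT2 and -0.06 in gPLT2C212S, neither called. That gene was called in other comparisons, among them gPLT2 against plt2 at 0.3 nM (-0.42, adjusted p = 0.0144) and 5 nM against mock in plt2 (-0.78, adjusted p = 0.00913), gPLT2 (-0.59, adjusted p = 0.00251) and gPLT2C212S (-0.74, adjusted p = 0.000236).

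**Figure D1:**
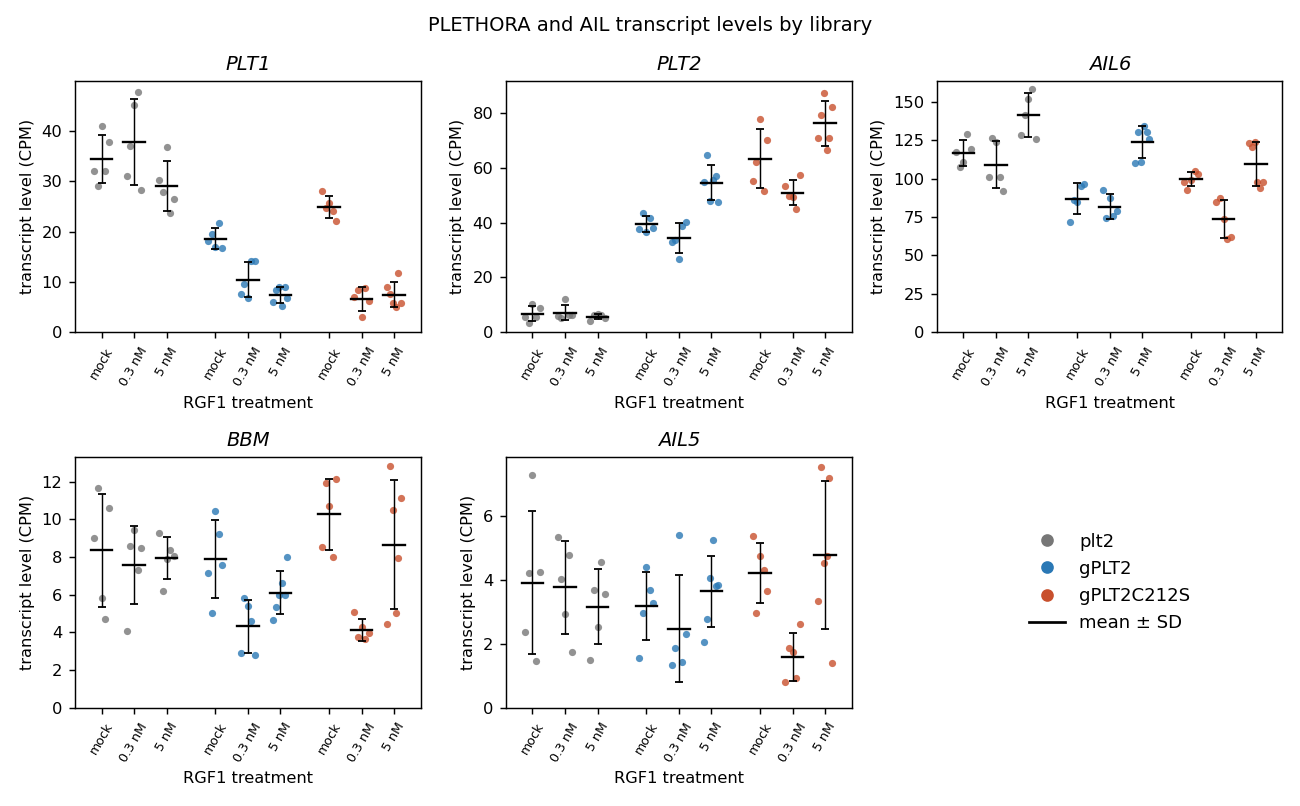
Level of each of the 5 testable genes in CPM (vertical axis, from 0) by treatment (horizontal axis) in plt2 (grey), gPLT2 (blue) and gPLT2C212S (orange), with 1 point per library and the group mean ± SD as black lines. PLT1 falls from mock to RGF1 in both transgenic lines and stays between 23.7 and 47.7 CPM in plt2, and PLT2 is low in every plt2 library.

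The dose comparisons ask what RGF1 changes in each line. At 0.3 nM against mock, none of the 5 tested genes was called in plt2, where 0.0504% of all genes were called (8 genes by edgeR, 1151 at an unadjusted p under 0.05, and 31 by DESeq2). In gPLT2, 2 of 4 tested genes were called, PLT1 and BBM, both lower, against 15.2% of all genes called in either direction and 9.08% called lower. In gPLT2C212S, 5 of 5 tested genes were called, all lower, against 22.9% of all genes called in either direction and 11.1% called lower. AIL5 is among these 5, at 2.97 to 5.38 CPM under mock and 0.804 to 2.63 CPM at 0.3 nM. It passed the count filter mainly through its mock libraries, which favours a lower result. The median log2 difference of the tested genes at 0.3 nM was -0.52 over 4 genes in gPLT2 and -1.32 over 5 genes in gPLT2C212S. It was 0.00 over all genes in both fits. AIL5 is in the second set only, so the medians do not compare the lines. The doses within a line share their mock libraries, so the values at both doses are not independent of each other.

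PLT1, a founding member of the root PLT genes, had the largest log2 difference from mock of the tested members in gPLT2C212S at both doses and in gPLT2 at 5 nM. In gPLT2 its level was 18.0, 19.6, 16.9, 21.7 and 16.7 CPM under mock and 7.65, 9.56, 6.89, 14.2 and 14.1 CPM at 0.3 nM. All 5 treated libraries were below all 5 mock libraries, and the log2 difference was -0.83 (SE 0.20, adjusted p = 0.00638). At 5 nM the 6 gPLT2 libraries ranged from 5.23 to 9.07 CPM with a median of 7.52. PLT1 thus fell by 1.36 on the log2 scale from mock to 5 nM (SE 0.17, adjusted p = 3.12e-06), again with no overlap. The step from 0.3 nM to 5 nM in gPLT2 was -0.52 (SE 0.23, adjusted p = 0.106), not called.

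In gPLT2C212S, PLT1 was at 28.1, 24.7, 25.7, 24.0 and 22.1 CPM under mock and at 6.97, 8.43, 2.93, 8.72 and 6.14 CPM at 0.3 nM. The groups did not overlap, and the log2 difference was -1.96 (SE 0.21, adjusted p = 7.78e-07), a 3.88-fold lower level. At 5 nM the 6 libraries ranged from 5.01 to 11.7 CPM with a median of 6.68, and the log2 difference from mock was -1.80 (SE 0.19, adjusted p = 2.92e-08). Between 0.3 nM and 5 nM, PLT1 in this line differed by 0.19 (SE 0.28, adjusted p = 0.729), not called. In plt2, PLT1 was at 32.1, 29.1, 41.0, 32.1 and 37.9 CPM under mock, at 31.1, 37.0, 45.1, 47.7 and 28.3 CPM at 0.3 nM and at 30.2, 27.9, 36.9, 23.7 and 26.6 CPM at 5 nM. These 3 groups overlapped, and neither dose was called against mock, with log2 differences of 0.17 (95% interval -0.18 to 0.51) and -0.22 (-0.53 to 0.09).

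**Figure D2:**
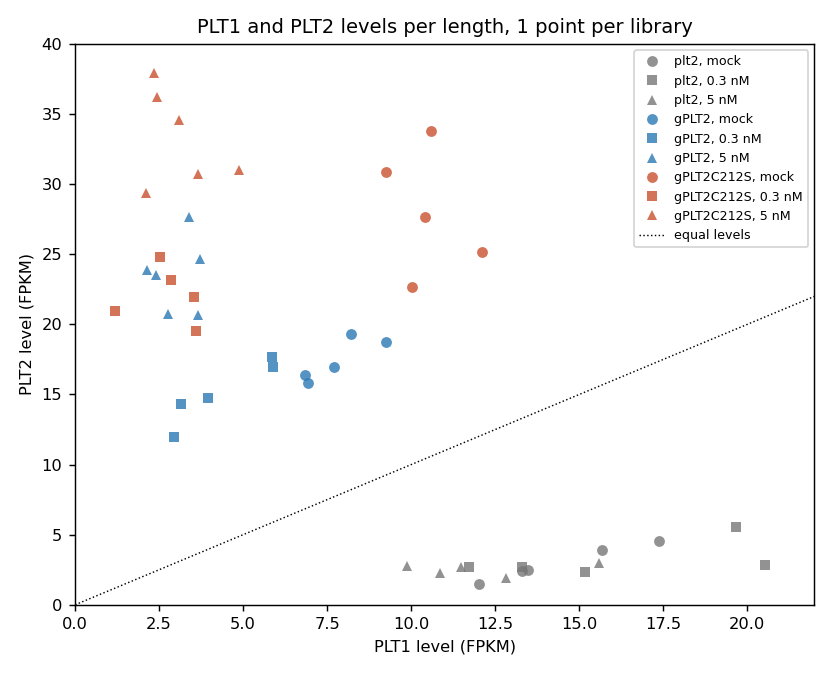
PLT1 level (horizontal axis, FPKM) against PLT2 level (vertical axis, FPKM), with 1 point per library, colours for genotype, symbols for treatment and a dotted line where both levels are equal. All 15 plt2 libraries lie below the line and all 32 transgenic libraries above it, and RGF1-treated transgenic libraries lie to the left of their mock libraries.

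Per length, PLT1 exceeded PLT2 in 15 of 15 plt2 libraries and PLT2 exceeded PLT1 in 32 of 32 transgenic libraries. The median ratio of PLT2 to PLT1 FPKM was 0.184 in plt2 under mock, 0.203 at 0.3 nM and 0.207 at 5 nM. In gPLT2 it was 2.28 under mock, 3.72 at 0.3 nM and 7.83 at 5 nM, and in gPLT2C212S it was 2.66, 8.08 and 12.6. The range in gPLT2C212S at 0.3 nM, 5.44 to 17.7, did not overlap that of its mock libraries, 2.07 to 3.34. The summed FPKM of both genes was 17.3 ± 3.36 in plt2, 25.2 ± 2.42 in gPLT2 and 38.5 ± 4.27 in gPLT2C212S under mock (SD, n = 5 each). At 0.3 nM the sum was 19.3 ± 4.72, 19.5 ± 3.65 and 24.8 ± 2.14 (SD, n = 5 each). At 5 nM it was 14.6 ± 2.34 in plt2 (SD, n = 5), 26.5 ± 2.76 in gPLT2 (SD, n = 6) and 36.4 ± 3.17 in gPLT2C212S (SD, n = 6), which for both transgenic lines is closer to the mock mean than the 0.3 nM mean is.

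At 5 nM against mock, fewer family members were called than at 0.3 nM in gPLT2C212S, although more genes were called overall. The members called at 0.3 nM include AIL5 and PLT2, whose call was lost in 7 of 10 fits that left out a library. With the mitochondrial share as a covariate, 3 members were called at 0.3 nM and 2 at 5 nM in that line. None of the 5 tested genes was called in plt2, against 9.44% of all genes (1504 genes by edgeR, with 4011 at an unadjusted p under 0.05). By DESeq2 1 of the 5 was called, AIL6 (adjusted p = 0.0427). In gPLT2, 3 of 5 were called, with PLT1 lower and PLT2 and AIL6 higher, against 47.5% of all genes. The groups of each did not overlap, but the share of all genes without overlap was not computed, so this does not set the members apart. In gPLT2C212S, 1 of 5 was called, PLT1, against 40.2% of all genes. Without gPLT2C212S mock replicate 3, PLT2 was called as well (0.33, adjusted p = 0.0377). Those shares of called members were close to or below the share of all genes in the transgenic lines.

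PLT2 transcript itself responded to the dose in both transgenic lines. In gPLT2 it was at 32.9, 33.7, 26.7, 38.7 and 40.1 CPM at 0.3 nM and at 47.5 to 64.5 CPM with a median of 55.2 in the 6 libraries at 5 nM. It rose by 0.44 from mock to 5 nM (SE 0.11, adjusted p = 0.00231) and was not called at 0.3 nM (-0.20, SE 0.13, adjusted p = 0.327). In gPLT2C212S it was at 53.4, 49.7, 49.2, 45.0 and 57.2 CPM at 0.3 nM and at 66.5 to 87.4 CPM with a median of 75.1 at 5 nM. Mock and 0.3 nM libraries of this line overlapped, and the call at 0.3 nM (-0.34, SE 0.12, adjusted p = 0.0480) was lost when any of 7 of the 10 libraries was left out: mock replicates 2, 3 and 5 and 0.3 nM replicates 1, 2, 3 and 4 (adjusted p up to 0.151). It was also lost under 4 other settings, with adjusted p of 0.0560 by DESeq2, 0.0808 without a filter on low counts, 0.0713 with the mitochondrial share as a covariate and 0.0559 with all 9 groups in a single fit. From 0.3 nM to 5 nM PLT2 in the gPLT2 line rose by 0.65 (SE 0.12, adjusted p = 0.000531), and in the gPLT2C212S line by 0.61 (SE 0.10, adjusted p = 0.000463).

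AIL6, the most abundant family member, was lower in gPLT2C212S at 0.3 nM than under mock or at 5 nM. In that line it was at 98.0, 92.8, 99.4, 105 and 103 CPM under mock and at 84.7, 87.4, 73.6, 60.6 and 61.8 CPM at 0.3 nM. Every 0.3 nM library was below every mock library, and AIL6 fell by 0.46 (SE 0.12, adjusted p = 0.00745). With a covariate for mitochondrial share the difference was -0.32 and the call was lost (adjusted p = 0.114), and that share was 45.0% to 63.2% in the 0.3 nM libraries and 55.3% to 66.6% under mock. At 5 nM it ranged from 94.1 to 124 CPM with a median of 109, which was not called against mock (0.11, SE 0.10, adjusted p = 0.429). In gPLT2, AIL6 was at 71.8, 86.3, 84.8, 95.4 and 96.3 CPM under mock and at 110 to 134 CPM with a median of 128 at 5 nM. These groups did not overlap, and AIL6 rose by 0.47 (SE 0.10, adjusted p = 0.000741).

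AIL6 was the member whose step from 0.3 nM to 5 nM was called in all 3 lines. In plt2 the step was 0.37 (SE 0.11, adjusted p = 0.0260). For gPLT2 it was 0.58 (SE 0.10, adjusted p = 0.000335), and for gPLT2C212S 0.60 (SE 0.12, adjusted p = 0.00176). The plt2 groups overlapped, and that call was lost without any of plt2 0.3 nM replicates 1, 4 and 5 and 5 nM replicates 2, 3 and 4 (adjusted p up to 0.0837). With a covariate for mitochondrial share the step in gPLT2C212S was 0.38 and not called (adjusted p = 0.104). For this step, plt2 had 1 of 5 members called, against 18.9% of all genes. The gPLT2 line had 2 of 5 called, both higher, against 23.2% of all genes called in either direction and 10.7% called higher. The gPLT2C212S line had 4 of 5 called, all higher, against 10.1% and 3.73%. AIL5 is among these 4 and passed the count filter mainly through its 5 nM libraries, which favours a higher result. With the mitochondrial share as a covariate, 2 members were called for this step in gPLT2C212S. The 3′ end of AIL6 overlaps RBK1 (AT5G10520), on the opposite strand, by 454 bases. Use of strand in the counting is not given in the sources used here, so reads in that stretch cannot be told apart. As counted, RBK1 averaged 0.733 to 6.07 CPM across groups and AIL6 73.6 to 141 CPM, and the part of shared reads in the AIL6 values was not tested.

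BBM, which can induce embryo development when overexpressed, and AIL5 were low, and both fell at 0.3 nM in gPLT2C212S. BBM was at 8.54, 11.9, 10.7, 8.01 and 12.1 CPM under mock and at 5.09, 3.75, 4.29, 3.67 and 3.94 CPM at 0.3 nM in that line. The groups did not overlap, and BBM fell by 1.32 (SE 0.22, adjusted p = 0.000184). At 5 nM the 6 libraries ranged from 4.45 to 12.8 CPM with a median of 9.23, spanning both other groups, and BBM rose by 1.09 from 0.3 nM to 5 nM (SE 0.27, adjusted p = 0.0118). In gPLT2 it was at 7.15, 5.04, 10.4, 9.21 and 7.58 CPM under mock and at 2.93, 5.84, 5.39, 4.62 and 2.81 CPM at 0.3 nM. These groups overlapped. The log2 difference was -0.89 (SE 0.28, adjusted p = 0.0342), and the call was lost without any of gPLT2 mock replicates 1, 3 and 4 and 0.3 nM replicates 1 and 5 (adjusted p up to 0.0982).

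AIL5 in gPLT2C212S was at 5.38, 2.97, 4.73, 4.29 and 3.64 CPM under mock and at 0.804, 1.87, 1.76, 0.918 and 2.63 CPM at 0.3 nM. The groups did not overlap, though the lowest of these levels were near the floor, and AIL5 fell by 1.39 (SE 0.35, adjusted p = 0.00644). At 5 nM it ranged from 1.39 to 7.50 CPM with a median of 4.62, and it rose by 1.55 from 0.3 nM (SE 0.40, adjusted p = 0.0135). With the mitochondrial share as a covariate this step was 1.35 and not called (adjusted p = 0.164). AIL5 passed the count filter mainly through mock in the first comparison and through 5 nM in the second, which favours these directions. In gPLT2 at 0.3 nM, AIL5 was at 1.35, 1.86, 5.39, 1.44 and 2.30 CPM, of which replicate 3 stood apart, and it was not tested there.

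**Figure D3:**
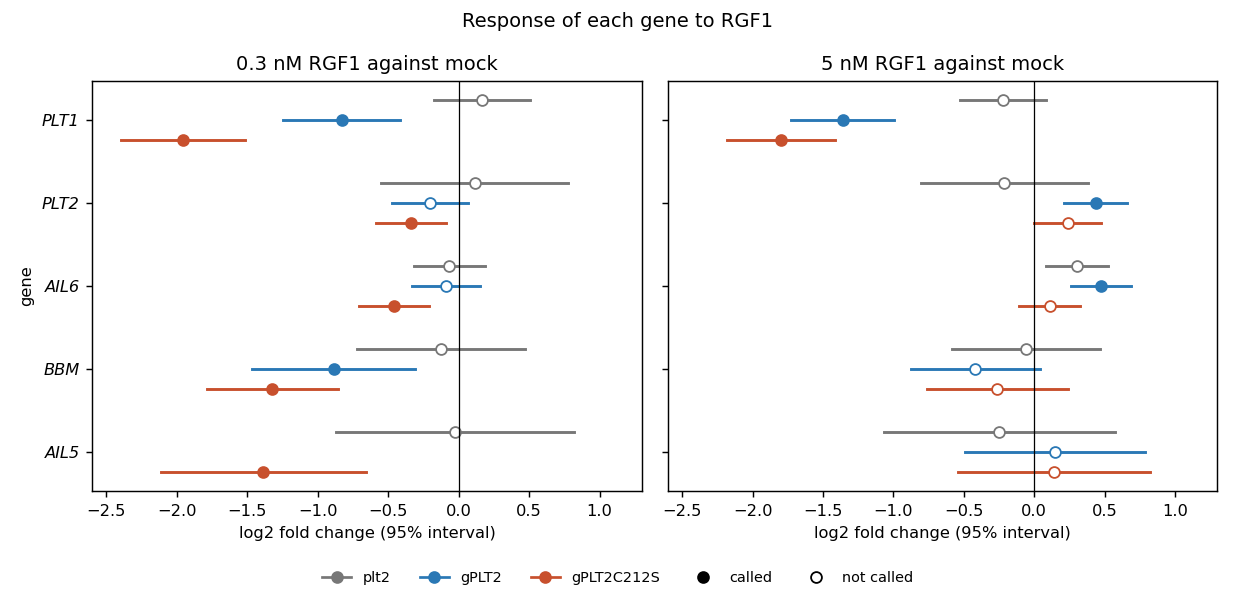
Log2 fold change against mock (horizontal axis, point with its 95% interval) for each gene (vertical axis) at 0.3 nM (left) and 5 nM RGF1 (right) in plt2 (grey), gPLT2 (blue) and gPLT2C212S (orange), with filled points called at an adjusted p under 0.05. At 0.3 nM all 5 genes lie below 0 in gPLT2C212S, and at 5 nM PLT1 alone lies below 0 with a called difference; AIL5 in gPLT2 at 0.3 nM was not tested.

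The genotype comparisons ask how the lines differ at a given treatment. PLT1 was lower in both transgenic lines than in plt2 at every treatment. Under mock gPLT2 stood at -0.87 relative to plt2 on the log2 scale (SE 0.14, adjusted p = 0.00376) and gPLT2C212S at -0.45 (SE 0.14, adjusted p = 0.0275), with no overlap between groups in either. The gPLT2C212S call was lost without plt2 mock replicate 3 or any of gPLT2C212S mock replicates 2, 3, 4 and 5 (adjusted p up to 0.0747). It was also lost without a filter on low counts (adjusted p = 0.0565), with the mitochondrial share as a covariate (0.0716) and with all 9 groups in a single fit (0.0569). The difference was -1.86 in gPLT2 and -2.58 in gPLT2C212S at 0.3 nM, and -2.01 and -2.0 at 5 nM, all called (adjusted p of 3.95e-07, 1.14e-08, 1.26e-08 and 1.38e-09). Under mock 2 of 5 members were called in each line, PLT1 lower and PLT2 higher, against 2.54% of all genes for gPLT2 and 18.7% for gPLT2C212S. PLT2 is mutated in plt2 and supplied by the transgene, so its call in comparisons with plt2 was fixed by the design.

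At 0.3 nM all 4 tested members differed from plt2 in both transgenic lines, against 31.3% of all genes called for gPLT2 and 46.4% for gPLT2C212S. PLT2 was higher, a call fixed by the design, and PLT1, AIL6 and BBM were lower. AIL5 was not tested in these comparisons. For AIL6 the log2 difference from plt2 was -0.42 in the gPLT2 line (SE 0.12, adjusted p = 0.00793), while the gPLT2C212S line gave -0.61 (SE 0.13, adjusted p = 0.000564). For BBM the same lines gave -0.83 (SE 0.30, adjusted p = 0.0363) and -0.91 (SE 0.26, adjusted p = 0.00752). The BBM call in gPLT2 was lost without plt2 0.3 nM replicates 2, 3, 4 or 5 or gPLT2 0.3 nM replicates 1 or 5 (adjusted p up to 0.0990), and also by DESeq2 (0.0530) and without a filter (0.0528). At 5 nM 2 of 5 members were called in gPLT2 and 3 of 5 in gPLT2C212S, against 38.5% and 45% of all genes, the third being AIL6 at -0.38 (SE 0.10, adjusted p = 0.00379). PLT2 is counted among these in both lines.

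Between the transgenic lines, PLT2 was the single member called at each treatment, higher in gPLT2C212S, against 8.77% of all genes called under mock, 7.39% at 0.3 nM and 4.27% at 5 nM. PLT1 was not called between them at 0.3 nM (-0.69, SE 0.28, adjusted p = 0.139), though it was with all 9 groups in a single fit (adjusted p = 0.0408). Their difference at 5 nM was 0.02 (95% interval -0.46 to 0.50). Under mock PLT1 was 24.9 ± 2.21 CPM in gPLT2C212S and 18.6 ± 2.1 CPM in gPLT2 (SD, n = 5 each), without overlap but not called (0.44, SE 0.14, adjusted p = 0.0599), and it was called without gPLT2 mock replicate 4 (0.50, adjusted p = 0.0450).

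Whether a response differed between lines was tested directly as an interaction, the difference between lines in the log2 change from mock. The response of PLT1 to 0.3 nM differed from that in plt2 by -0.99 for gPLT2 (SE 0.26, adjusted p = 0.0234), and for gPLT2C212S by -2.13 (SE 0.28, adjusted p = 1.11e-05). The gPLT2 call was lost without plt2 0.3 nM replicate 4, gPLT2 mock replicate 4 or gPLT2 0.3 nM replicate 1 (adjusted p up to 0.0544), and with the mitochondrial share as a covariate (-0.76, adjusted p = 0.130). At 5 nM the interaction of PLT1 with plt2 was -1.12 for gPLT2 (SE 0.22, adjusted p = 0.00148), and for gPLT2C212S it was -1.53 (SE 0.24, adjusted p = 3.67e-05). In these fits 1 of 5 members was called for gPLT2 at 0.3 nM, 2 of 5 for gPLT2C212S at 0.3 nM and 1 of 5 for each line at 5 nM (2 in gPLT2 without plt2 mock replicate 2, PLT2 being added), against 5.99%, 11%, 9.76% and 12.4% of all genes. For gPLT2C212S at 0.3 nM both were lower, against 6.19% of all genes called lower.

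BBM was the other member whose response to 0.3 nM differed from plt2, by -1.21 in gPLT2C212S (SE 0.36, adjusted p = 0.0280). That call was lost without plt2 0.3 nM replicate 3, gPLT2C212S mock replicate 2 or gPLT2C212S 0.3 nM replicate 4 (adjusted p up to 0.0538), and with the mitochondrial share as a covariate (-1.46, adjusted p = 0.0701). Between the transgenic lines the response of PLT1 to 0.3 nM differed by -1.13 in gPLT2C212S relative to gPLT2 (SE 0.30, adjusted p = 0.0438), 1 of 5 members called against 1.99% of all genes. This call was lost when any of 15 of the 20 libraries was left out (adjusted p up to 0.0946), all but gPLT2 mock replicate 4, gPLT2 0.3 nM replicates 1 and 3 and gPLT2C212S 0.3 nM replicates 2 and 4, and with the mitochondrial share as a covariate (-0.92, adjusted p = 0.0877). At 5 nM none of the 5 members was called between the transgenic lines by edgeR, against 4.82% of all genes (3285 genes at an unadjusted p under 0.05). For PLT1 the 5 nM difference was -0.44 (95% interval -0.95 to 0.08).

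**Figure D4:**
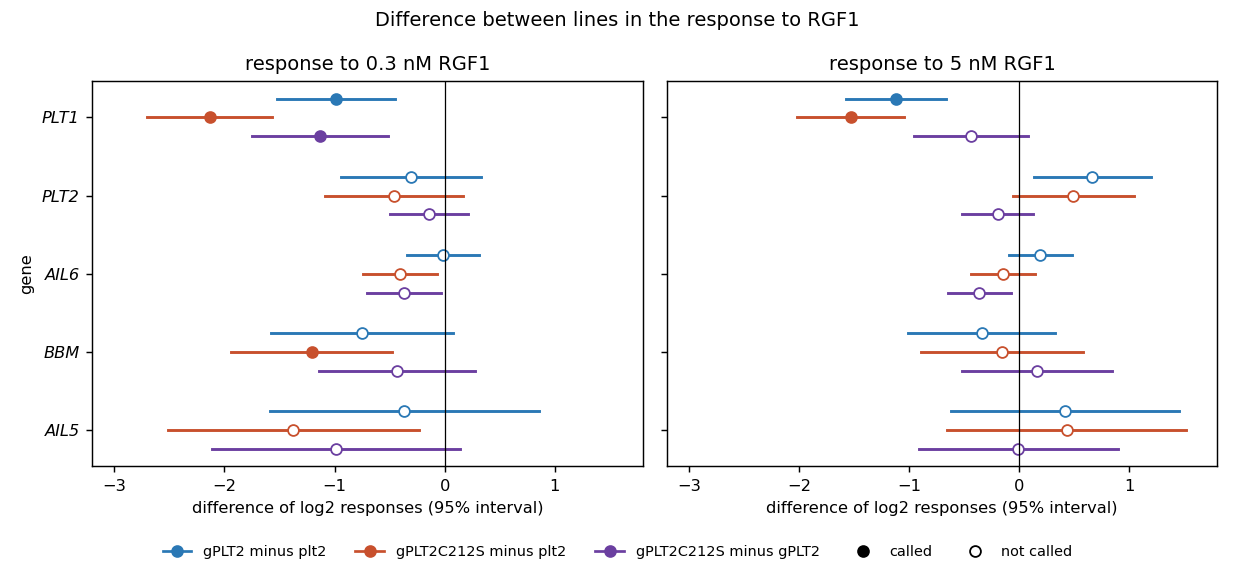
Difference between lines in the log2 response to 0.3 nM (left) and 5 nM RGF1 (right) (horizontal axis, point with its 95% interval) for each gene (vertical axis), with filled points called at an adjusted p under 0.05. PLT1 is called against plt2 in both lines at both doses, and the 3 pairs of lines share libraries.

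Markers of other root cell types also changed with RGF1, but not always in the same comparisons as PLT1. The summed level of 4 root cap regulators (SMB, BRN1, BRN2 and FEZ) was 178 to 317 CPM in gPLT2 under mock, 147 to 233 CPM at 0.3 nM and 49.1 to 115 CPM at 5 nM. In gPLT2C212S it was 203 to 233 CPM under mock, 70.9 to 114 CPM at 0.3 nM and 59.6 to 127 CPM at 5 nM, and in plt2 it was 177 to 436, 301 to 422 and 131 to 257 CPM. Of these 4 genes, 3 were called lower at 0.3 nM in gPLT2 and 4 at 0.3 nM in gPLT2C212S, with 4 called lower in each line at 5 nM. Of all genes, 9.08% and 11.1% were called lower at 0.3 nM, and 47.5% and 40.2% were called in either direction at 5 nM. In plt2, 3 of these 4 genes were called lower from 0.3 nM to 5 nM, where 18.9% of all genes were called in either direction. PLT1 was not called for that step by edgeR (-0.39, adjusted p = 0.0920), though it was without plt2 0.3 nM replicate 5 or 5 nM replicate 3. The part of the root cap genes in the PLT1 result was not tested.

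The summed level of 4 genes of dividing cells (CYCB1;1, KNOLLE, CDKB1;1 and CDKB2;1) was higher at 5 nM than under mock in both transgenic lines. It was 103 to 136 CPM in gPLT2 under mock, 102 to 130 CPM at 0.3 nM and 172 to 204 CPM at 5 nM, and in gPLT2C212S it was 120 to 159, 152 to 230 and 178 to 222 CPM. At 5 nM 3 of the 4 genes were called higher and 0 lower in gPLT2, and 3 higher and 1 lower in gPLT2C212S, where CDKB1;1 had a mean of 38.8 CPM under mock and 32.1 CPM at 5 nM. At 0.3 nM none of the 4 was called in gPLT2 by edgeR and 2 were called higher in gPLT2C212S. Of all genes, 47.5% in gPLT2 and 40.2% in gPLT2C212S were called in either direction at 5 nM, and 15.2% and 22.9% at 0.3 nM. Summed xylem markers (VND7, CESA4, CESA7, CESA8 and XCP1) were 6.58 to 9.96 CPM in gPLT2C212S under mock, 19.9 to 36.2 CPM at 0.3 nM and 26.7 to 46.4 CPM at 5 nM. In gPLT2 they were 8.84 to 13.1, 14.0 to 32.1 and 10.1 to 27.4 CPM, and in plt2 8.20 to 10.6, 3.79 to 11.4 and 3.66 to 6.94 CPM. VND7 stayed near the floor in gPLT2C212S, with means of 0.694, 0.888 and 0.608 CPM. Leaf markers summed to at most 2.20 CPM in any library. The 4 root hair markers and 6 Casparian strip markers summed to at most 48.8 and 19.7 CPM. In gPLT2C212S the Casparian strip sum was 2.85 to 7.58 CPM under mock. It was 10.96 to 19.7 CPM at 0.3 nM and 6.95 to 12.2 CPM at 5 nM. MYB36 made up most of that sum, with means of 5.06, 9.75 and 6.41 CPM in this order. In gPLT2 and plt2 the mock and treated ranges of the sum overlapped. Root hair sums in gPLT2C212S were 16.1 to 27.5, 9.92 to 13.7 and 7.41 to 14.1 CPM in the same order. RHD6 made up most of them, with means of 19.7, 10.4 and 10.6 CPM. In gPLT2 the sums were 18.96 to 29.9, 13.7 to 20.7 and 10.5 to 16.5 CPM, and in plt2 the ranges overlapped. For plt2 at 5 nM against mock, 1 of 2 tested root hair genes was called lower, where 9.44% of all genes were called in either direction. The part of these cell types in the family's changes was not tested.

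**Figure D5:**
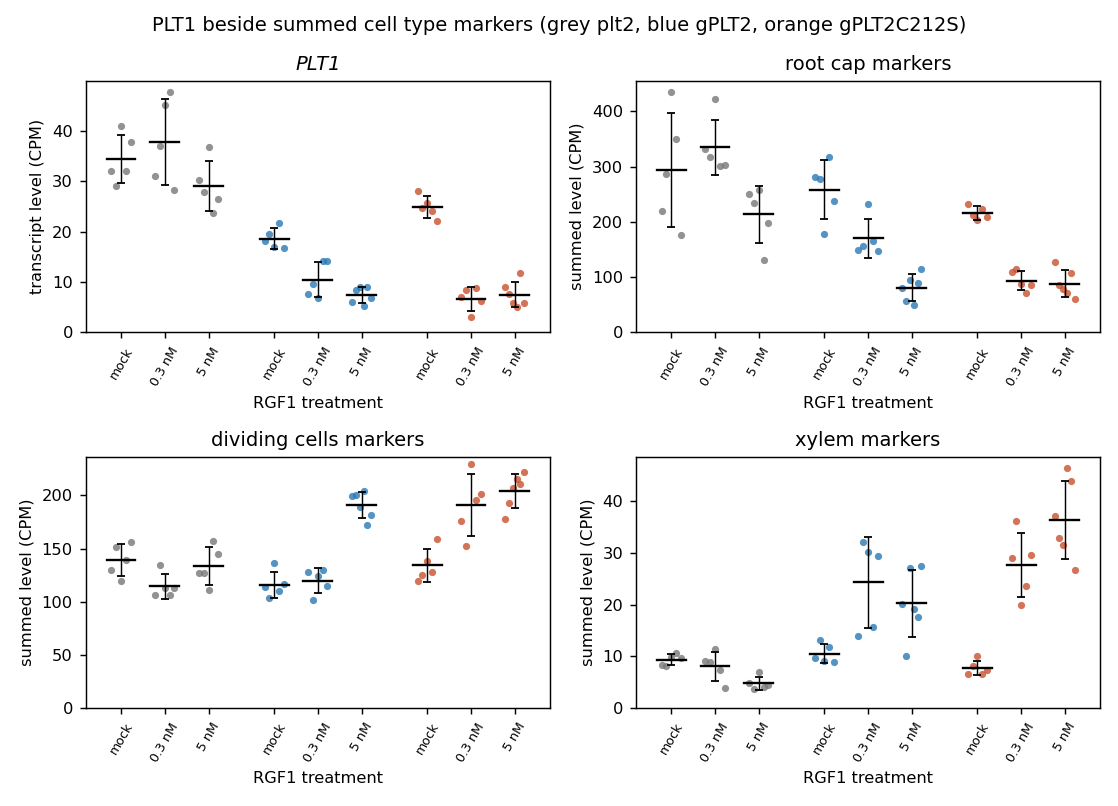
PLT1 (CPM) beside the summed levels (CPM) of markers of the root cap, of dividing cells and of xylem (vertical axes, from 0), by treatment (horizontal axis), with 1 point per library and the group mean ± SD as black lines. Root cap markers are lowest in the RGF1-treated transgenic groups, where dividing cell and xylem sums are highest, except for the dividing cell sum in gPLT2 at 0.3 nM.

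Genes known to act with the PLT genes were counted from a list of 12, including SHR and SCR, regulators of radial patterning, WOX5, of the quiescent centre, and the PIN auxin carriers. Of 11 tested, 0 rose and 1 fell at 0.3 nM in gPLT2, and 0 rose and 4 fell in gPLT2C212S. At 5 nM 2 rose and 4 fell in gPLT2, 0 rose and 6 fell in gPLT2C212S, and none was called in plt2 at either dose by edgeR. The 6 of 11 called in each transgenic line at 5 nM stand beside 47.5% of all genes called in gPLT2 and 40.2% in gPLT2C212S, and the counts at 0.3 nM beside 15.2% and 22.9%. The list median at 5 nM was -0.29 in gPLT2 and -0.51 in gPLT2C212S, beside 0.03 and 0.00 over all genes. PIN4, an auxin efflux carrier of the root tip, fell at both doses in both transgenic lines: from 44.1 to 28.8 CPM at 0.3 nM in gPLT2 (-0.61, SE 0.13, adjusted p = 0.00175) and from 47.3 to 20.02 CPM in gPLT2C212S (-1.27, SE 0.15, adjusted p = 3.61e-06). At 5 nM the carriers PIN3 and PIN7 fell as well, by 0.63 and 0.53 in gPLT2 (adjusted p = 9.34e-05 and 0.000334) and by 0.80 and 1.23 in gPLT2C212S (adjusted p = 1.71e-06 and 3.75e-07).

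In the RGF1 pathway, 11 genes were counted. At 0.3 nM 2 rose and 3 fell in gPLT2, and 3 of 10 tested rose and 3 fell in gPLT2C212S. At 5 nM 3 rose and 5 fell in gPLT2, 3 of 10 tested rose and 4 fell in gPLT2C212S, and 2 rose and 3 fell in plt2. All genes were called at 47.5%, 40.2% and 9.44% in these 5 nM comparisons, and at 15.2% and 22.9% in those at 0.3 nM. RGF3, a gene for a precursor of the same peptide family, fell from 98.4 to 11.8 CPM in gPLT2 at 5 nM (-3.14, SE 0.21, adjusted p = 6.71e-10) and from 74.1 to 6.52 CPM in gPLT2C212S (-3.57, SE 0.25, adjusted p = 2.51e-11). In plt2 at 5 nM it fell from 149 to 63.2 CPM (-1.21, SE 0.18, adjusted p = 0.000457). RITF1, a transcription factor of the RGF1 response, rose from 22.4 to 53.2 CPM in gPLT2 at 5 nM (1.21, SE 0.12, adjusted p = 9.39e-08).

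Of 9 other genes of the AP2 family, 6 were tested at 0.3 nM. Of these 3 rose and 0 fell in gPLT2 and 1 rose and 0 fell in gPLT2C212S, with medians of 0.40 and -0.09 beside 0.00 over all genes in both, where 15.2% and 22.9% of all genes were called. WRI4, a regulator of cuticular wax synthesis in the stem, rose by 1.08 in the gPLT2 line (SE 0.19, adjusted p = 0.000290), and its rise was 0.94 in the gPLT2C212S line (SE 0.20, adjusted p = 0.00163). Among the GROWTH-REGULATING FACTOR genes and GIF1, their coactivator, 6 were tested at 0.3 nM, of which 2 rose and 1 fell in gPLT2 and 0 rose and 2 fell in gPLT2C212S, beside the same shares of all genes.

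Across the 47 libraries, the genes whose log2 level followed that of PLT1 most closely, among 14369 genes averaging at least 5 CPM, were RGXT2 (Pearson r = 0.94), FUT6 (0.93) and AT1G26920 (0.92). For PLT2 they were PCK1 (0.91), NSP1 (0.91) and MLS (0.90), for AIL6 they were POL (0.70), IQD16 (0.68) and AT4G09160 (0.65), and for BBM they were AT1G26680 (0.61), IQD16 (0.60) and CYP79B2 (0.59). The r between PLT1 and PLT2 was -0.72, that of PLT1 with AIL6 was 0.32 and that of PLT1 with BBM was 0.40. These values are descriptive, since the libraries fall into 9 groups and are not independent points. The PLT2 level was set mainly by presence of the transgene, so correlations with PLT2 cannot be told apart from genotype. PLT1 and PLT2 share at most 38 identical bases in a row in their coding sequences, AIL6 and AIL7 34, and BBM and ANT 32, so reads that lie within such runs cannot be assigned to 1 gene.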

How the data were processed

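The authors deposited raw read counts per locus and, for 25722 loci, FPKM values. The submitters' processing notes name HISAT2 2.1.0, featureCounts, Subread 2.0.3, DESeq 1.34.0 and the build TAIR10, without roles; the use of strand is not given in the sources used here. Of the loci, 36632 matched the RefSeq gene table. Every column matched a sample by name.

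Counts were tested in R 4.3.3 with edgeR 4.0.16 (quasi-likelihood F test, filterByExpr with a minimum count of 10, TMM factors) in the 2 groups compared, or 4 for an interaction. P-values were adjusted by Benjamini-Hochberg over all genes of each fit, and a gene was called below 0.05. SE is the size of the fitted log2 difference divided by the square root of its F statistic, not a separately fitted standard error. Intervals are 95% intervals of the log2 difference built from that SE. CPM was computed without 14 loci that had counts but no FPKM. Overlap of groups was checked for the family members only, and the share of all genes without overlap was not computed. Alternatives were DESeq2 1.42.0, RLE factors, no filter, no set-aside loci, 1 fit over 9 groups, the mitochondrial share as covariate, a replicate block and leaving out each library.

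All members are reported. Of each other list, at most the 3 called genes with the smallest adjusted p in a comparison were named. Members and lists were chosen with earlier results of these data known. A protein alignment was planned; coding DNA of TAIR10.1 was used instead.

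The fits were tested on simulated counts. Estimates were close to the values put in, but the interaction fit recovered far fewer of the altered genes than the 2-group fit. It missed a recovery share set in advance, and that requirement was then dropped, so an uncalled interaction carries little weight.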

Additional observations from a re-analysis of the deposited data

Results flagged for a closer look

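In 2 of 52 sets, each a family member in 1 group of 5 or 6 libraries with more than 3 counts in its highest library, a single library stood apart from the others of its group, and chance flags about 1 in 20 such sets. PLT2 was at 12.0 CPM in plt2 0.3 nM replicate 3, beside 5.36 to 6.23 CPM in the other 4 libraries. AIL5 was at 5.39 CPM in gPLT2 0.3 nM replicate 3, from 18 counts, beside 1.35 to 2.30 CPM in the other 4.

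With 5 members tested in each interaction fit, the response to RGF1 was called different between lines in 6 tests. Of all genes, 1.99% to 12.4% were called in these fits. For PLT1 at 0.3 nM the difference in log2 response from plt2 was -0.99 in the gPLT2 line, while the gPLT2C212S line gave -2.13. The difference of the gPLT2C212S line from the gPLT2 line was -1.13. At 5 nM the gPLT2 line differed from plt2 by -1.12, and the gPLT2C212S line by -1.53. For BBM at 0.3 nM the gPLT2C212S line differed from plt2 by -1.21. Libraries are shared between these tests. The call at -1.13 was lost in 15 of 20 fits that left out a library, and those at -0.99 and -1.21 in 3 of 20 each. All of these were also lost with the mitochondrial share as a covariate.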

How the results depend on the processing

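Of 116 log2 differences of the family, 44 were called, and none of these changed sign under any alternative run. Of the 44, 33 stayed called throughout. Both counts include PLT2 in the comparisons with plt2, whose calls were fixed by the design. The comparisons share libraries, and the share of called genes that stayed called was not computed over all genes. RLE factors and leaving out the set-aside loci changed no count by more than 1.5 times.

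By DESeq2, 1 member rather than 0 was called at 5 nM in plt2, and all genes called were 31 at 0.3 nM in plt2 and 703 for gPLT2 against plt2 under mock, beside 8 and 405. With all 9 groups in a single fit the last 2 were 30 and 1145, plt2 at 5 nM had 2329, and the 0.3 nM interaction of gPLT2 with plt2 had 1562. That fit called 2 members between transgenic lines at 0.3 nM and 1 for gPLT2C212S against plt2 under mock. Without a filter on low counts these numbers of all genes were 164 at 0.3 nM in plt2, 911 for gPLT2 against plt2 under mock, 1125 between transgenic lines at 5 nM, and 1522 and 651 for the 0.3 nM interactions of gPLT2 with plt2 and of gPLT2C212S with gPLT2. It called 1 member for gPLT2C212S against plt2 under mock.

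With the mitochondrial share as a covariate, members called in gPLT2C212S were 3 at 0.3 nM, 2 at 5 nM and 2 for the step, and 1 for this line against plt2 under mock. The 0.3 nM interactions called 0 for gPLT2 with plt2, 1 for gPLT2C212S with plt2 and 0 between transgenic lines. All genes called were 4 and 2702 in plt2 at 0.3 and 5 nM, 2047 in gPLT2C212S at 0.3 nM, 2132 between transgenic lines under mock, and 332 and 660 for the 0.3 nM interactions of gPLT2 and gPLT2C212S with plt2. The causes were not tested.

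Replicate numbers did not pair the libraries: same-numbered libraries correlated above 0.1 in 17 of 91 pairs (-0.45 to 0.34), in none of 18 comparisons for every pair, and 19 correlated best with their own number. With a replicate block, members called were 1 in gPLT2 at 0.3 nM, where BBM was -0.88 (adjusted p = 0.0551), and 1 for gPLT2C212S against plt2 under mock, where PLT1 was -0.45 (adjusted p = 0.0520). All genes called with the block were 15 at 0.3 nM in plt2, 130 for gPLT2 against plt2 under mock and 430 between transgenic lines at 5 nM.

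Some uncalled values changed sign. AIL5 in the 5 nM interaction between transgenic lines (-0.01) was 0.013 by DESeq2, 0.016 with RLE factors, 0.0023 in the single fit and 0.23 with the block. PLT1 between transgenic lines at 5 nM (0.02) was -0.0056 in the single fit, -0.0095 without a filter and -0.31 with the covariate. With the block, AIL5 at 0.3 nM in plt2 was 0.018 and BBM in gPLT2C212S against plt2 at 5 nM was -0.021. With the covariate, AIL5 was -0.032 in gPLT2C212S at 5 nM and -0.035 in this line against plt2 under mock, AIL6 was 0.019 in the 0.3 nM interaction of gPLT2 with plt2, and BBM was 0.17 in gPLT2 against plt2 under mock, 0.044 between transgenic lines at 0.3 nM, and 0.15 at both doses in plt2. PLT1 was -0.57 for the step in gPLT2C212S and -0.054 at 0.3 nM in plt2, where PLT2 was -0.22.

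Leaving out single libraries moved members called to between 1 and 2 in gPLT2 at 0.3 nM, in gPLT2C212S at 5 nM, for gPLT2C212S against plt2 and against gPLT2 under mock and for the 5 nM interaction of gPLT2 with plt2, to 0 to 1 for the step in plt2 and for the 0.3 nM interactions of gPLT2 with plt2 and of gPLT2C212S with gPLT2, and to 1 to 3 for that of gPLT2C212S with plt2. All genes called ranged from 5 to 35 and 904 to 2356 in plt2 at 0.3 and 5 nM, 1522 to 3164 in gPLT2 at 0.3 nM, 1925 to 3369 and 1084 to 1646 for the steps in plt2 and gPLT2C212S, 170 to 605 and 915 to 1997 for gPLT2 against plt2 and gPLT2C212S against gPLT2 under mock, 557 to 1800 and 211 to 518 for the 0.3 nM interactions of gPLT2 with plt2 and gPLT2C212S with gPLT2, and 536 to 1286 for that between transgenic lines at 5 nM.

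Uncalled values that changed sign when a library was left out ranged as follows. In plt2 at 0.3 nM PLT2 was -0.17 to 0.30, BBM -0.27 to 0.030 and AIL5 -0.22 to 0.30, and at 5 nM BBM was -0.20 to 0.077 and AIL5 -0.44 to 0.070. AIL5 was -0.012 to 0.30 in gPLT2 and -0.043 to 0.34 in gPLT2C212S at 5 nM. For the step, BBM was -0.088 to 0.16 in plt2 and PLT1 -0.021 to 0.32 in gPLT2C212S. Under mock, gPLT2 against plt2 gave -0.22 to 0.077 for BBM and -0.45 to 0.082 for AIL5, and gPLT2C212S against plt2 gave -0.068 to 0.45 for AIL5. BBM was -0.18 to 0.078 between transgenic lines at 0.3 nM and -0.033 to 0.24 in gPLT2C212S against plt2 at 5 nM, where AIL5 was -0.023 to 0.32 in gPLT2 and PLT1 -0.15 to 0.11 between transgenic lines. AIL6 was -0.092 to 0.044 in the 0.3 nM interaction of gPLT2 with plt2, and AIL5 -0.16 to 0.20 in that between transgenic lines at 5 nM.

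AIL5 rested on 3 to 26 counts per library, which limits its precision, and its untested comparison of gPLT2C212S with plt2 at 0.3 nM was -1.21 without a filter (SE 0.45, adjusted p = 0.0295).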
